A study of Daphnia pulicaria with 8 samples.

Results

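Succinate dehydrogenase transcripts were followed in adult Daphnia pulicaria, a freshwater crustacean extracted whole. The title of the study names hypoxia and metabolism. The account covers 3 of the 33069 genes in the deposited gene table: 2 genes named for the flavoprotein subunit of the enzyme, Daplx7pEVm004881 and Daplx7pEVm007897, and 1 named for its iron-sulfur subunit, Daplx7pEVm015988. Their 6 isoforms, of 109737 in the deposited isoform table, are covered too. These 3 genes were picked from the 9 genes with succinate dehydrogenase in their name because their values differed between Red and Pale animals in earlier work on the same libraries. Their Red against Pale values are therefore given below as a description, without a test.

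Succinate dehydrogenase, also called complex II, is the only enzyme that belongs both to the tricarboxylic acid cycle and to the respiratory chain of mitochondria. It oxidises succinate to fumarate on its flavoprotein subunit, passes the electrons through the iron-sulfur subunit and hands them to ubiquinone in the inner membrane, where cytochrome b subunits anchor it. Dedicated assembly factors attach the flavin and the iron-sulfur clusters. In many animals succinate builds up when oxygen is short, because the respiratory chain then takes fewer electrons.

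The animals were of a Red or a Pale phenotype, as the labels call them, and each of 4 lakes (Black, Doe, Long and Round) gave 1 Red and 1 Pale library, 8 in all. Per the labels' protocols, 30 animals from each lake were preserved for RNA, ribosomal RNA was removed and strand-specific libraries followed. The labels do not state if the number of animals holds for each phenotype, nor their age, sex or clone. No combination of lake and phenotype was repeated, so the replicates are lakes and the error is the variation of the Red minus Pale difference between lakes. The libraries are of whole animals, in which fewer cells of a type and less RNA per cell cannot be told apart.

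Values are FPKM, read fragments divided by transcript length and by library size, so that levels of different genes can be set side by side. Summed FPKM ran from 543804 to 582444 per library, and 19274 to 21606 genes were above 0. The total of reads is unknown. Whole-fragment steps in the low values gave a depth of 1.85 times that of Black Pale for Black Red and 0.904 to 1.13 times for the other libraries. A single uncharacterized gene, Daplx7pEVm025448, held 41.0% to 48.1% of the FPKM in each library and in each lake its share was larger in the Red library; the part of this in the FPKM of other genes was not tested. Median-of-ratios size factors ran from 0.927 to 1.07 in Red and from 0.960 to 1.09 in Pale. Differences are Red minus Pale on the log2(FPKM + 1) scale, which understates the change of low genes, with the limma standard error.

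The main flavoprotein gene, Daplx7pEVm004881, was lower in the Red library of every lake. This subunit carries the flavin that oxidises succinate. It had 29.24, 27.72, 31.56 and 42.06 FPKM in Red animals of Black, Doe, Long and Round, against 62.94, 43.84, 62.41 and 62.00 FPKM in Pale animals of the same lakes. All 4 Red values lay below all 4 Pale values, with Round the highest of the Red libraries and Doe by itself at the low end of the Pale ones. The means were 32.6 ± 6.47 FPKM in Red and 57.8 ± 9.31 FPKM in Pale (SD, n = 4 each), a ratio of means of 0.565, and the log2 difference was -0.81 ± 0.15 (SE). By lake the log2 difference was -1.08 in Black, -0.96 in Long, -0.64 in Doe and -0.55 in Round.

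For scale, 12865 genes had a mean of at least 1 FPKM and were fitted. Among them 4.45% had all 4 Red values below all 4 Pale values, and 14.6% were lower in Red in all 4 lakes. The opposite patterns were rarer, with 1.62% wholly above and 6.57% higher in all 4 lakes. With limma and a Benjamini-Hochberg adjusted p under 0.05, 0 genes (0%) were called lower in Red and 0 (0%) higher. At an unadjusted p under 0.05 there were 1195 genes lower and 372 higher. The 3 genes were chosen on this contrast, so nothing is read from their place against these shares.

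The iron-sulfur gene, Daplx7pEVm015988, was likewise lower in Red in all 4 lakes, but hardly so in Doe. This subunit carries electrons from the flavin to ubiquinone. It had 16.40, 16.47, 13.70 and 17.16 FPKM in Red animals of Black, Doe, Long and Round, against 31.39, 18.55, 27.17 and 33.06 FPKM in Pale animals. The Red values lay close together and wholly below the Pale ones, and the lowest Pale value, that of Doe, came near them. Means were 15.9 ± 1.53 FPKM in Red and 27.5 ± 6.49 FPKM in Pale (SD, n = 4 each), a ratio of means of 0.578 and a log2 difference of -0.73 ± 0.18 (SE). Red over Pale gave ratios of 0.522 in Black, 0.504 in Long and 0.519 in Round, but of 0.888 in Doe.

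The second flavoprotein gene, Daplx7pEVm007897, ran at a much lower level with the same order within each lake. Its values were 3.19, 2.46, 1.52 and 4.11 FPKM in Red animals of Black, Doe, Long and Round, against 5.71, 3.74, 4.66 and 5.18 FPKM in Pale animals. Here the phenotypes overlapped, since Round Red lay above Doe Pale. The log2 difference was -0.64 ± 0.18 (SE), with means of 2.82 ± 1.10 FPKM in Red and 4.82 ± 0.839 FPKM in Pale (SD, n = 4 each). At this level the pseudocount matters: the log2 difference was -0.34 with a pseudocount of 5. The genes share a product name, and how reads common to near-identical copies were divided is not given in the sources used here, so the split between flavoprotein genes is uncertain.

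**Figure D1:**
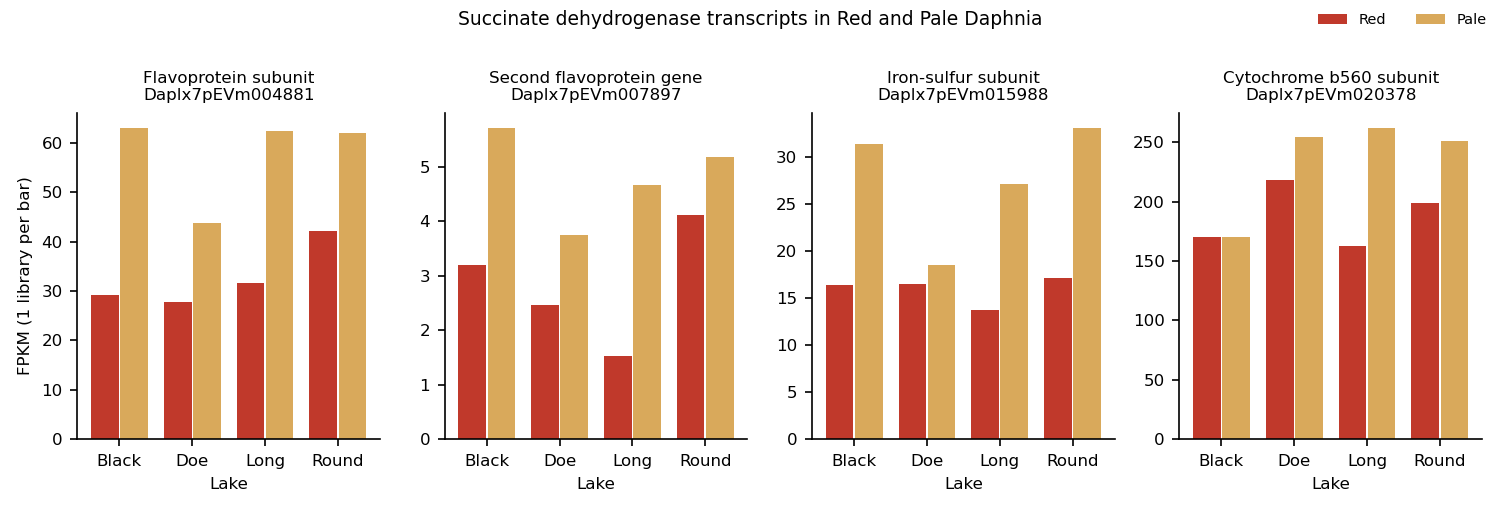
FPKM of the flavoprotein gene, the second flavoprotein gene, the iron-sulfur gene and the cytochrome b560 gene in each lake, Red bars left of Pale bars, 1 library per bar. The first 3 genes are lower in Red in all 4 lakes, least so in Doe for the iron-sulfur gene, whereas the b560 bars of Black are level at 170.63 FPKM in Red and 169.99 FPKM in Pale.

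Another gene with the flavoprotein name, Daplx7pEVm006671, was outside the chosen genes and low. It had 0.66, 0.57, 1.02 and 1.30 FPKM in Red animals of Black, Doe, Long and Round, against 1.13, 1.71, 1.78 and 1.51 FPKM in Pale animals. It was lower in Red in all 4 lakes, but the phenotypes overlapped and the log2 difference of -0.43 ± 0.20 (SE) did not pass (limma adjusted p = 0.447). Summed over the 3 flavoprotein genes, the level was 33.1, 30.8, 34.1 and 47.5 FPKM in Red animals of those lakes, against 69.8, 49.3, 68.9 and 68.7 FPKM in Pale animals. The main gene held between 88.4% and 92.6% of that sum in every library, as the deposited values divide it between the copies.

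The membrane anchor had a smaller Red minus Pale difference than the chosen genes. Their choice on this contrast from among these names bears on that gap, which was not tested. Daplx7pEVm020378, named for the cytochrome b560 subunit that holds the enzyme in the membrane, was the most abundant of the succinate dehydrogenase names. It had 170.63, 218.21, 162.28 and 198.86 FPKM in Red animals of Black, Doe, Long and Round, against 169.99, 254.51, 261.86 and 250.82 FPKM in Pale animals. The phenotypes overlapped because Black Pale was as low as the Red libraries. Its log2 difference was -0.31 ± 0.16 (SE) and did not pass (limma adjusted p = 0.491), with means of 187 ± 25.8 FPKM in Red and 234 ± 43.1 FPKM in Pale (SD, n = 4 each). A further anchor name, the cytochrome b subunit Daplx7pEVm020067, was listed at 0 in 7 libraries and at 0.36 FPKM in Long Pale.

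The 3 assembly factor names were all low. Assembly factor 1 (Daplx7pEVm026929), which helps to install the iron-sulfur clusters, had 1.07, 1.10, 0.28 and 1.18 FPKM in Red animals of Black, Doe, Long and Round, against 1.67, 1.37, 2.82 and 2.40 FPKM in Pale animals. All Red values lay below all Pale values, as in 4.45% of all genes fitted. The log2 difference of -0.69 ± 0.28 (SE) did not pass (limma adjusted p = 0.408). Assembly factor 2 (Daplx7pEVm021749), which promotes attachment of the flavin, had 5.73, 4.89, 8.99 and 3.02 FPKM in Red animals against 9.30, 3.63, 6.67 and 4.77 FPKM in Pale animals, and was lower in Red in 2 lakes and higher in the other two. Its log2 difference was -0.10 ± 0.23 (SE; limma adjusted p = 0.893). Assembly factor 4 (Daplx7pEVm022401) stayed at or below 1.46 FPKM and was listed at 0 in 4 libraries. Its mean of 0.395 FPKM was below the limit of 1 FPKM, so it was not fitted.

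Ratios within a library do not change when the library is scaled by a single factor, though quantile normalization can change them. The main flavoprotein gene held 1.68 to 2.45 times the FPKM of the iron-sulfur gene over the 8 libraries, with a mean of 2.06 ± 0.379 in Red and 2.14 ± 0.233 in Pale (SD, n = 4 each). The ratio of Red was below that of Pale in 2 lakes and above it in the other two, and the ranges of the phenotypes overlapped. The ratio of b560 to the main flavoprotein gene was 5.84, 7.87, 5.14 and 4.73 in Red animals of Black, Doe, Long and Round, against 2.70, 5.80, 4.20 and 4.04 in Pale animals. It was higher in Red in all 4 lakes, although Doe Pale lay within the Red range. The choice of the flavoprotein gene on this contrast bears on that direction. The ratio of b560 to the iron-sulfur gene averaged 11.8 ± 1.17 in Red and 9.09 ± 3.54 in Pale (SD, n = 4 each). In Doe that ratio was lower in Red, by -0.47, and in the other lakes it was higher. The second flavoprotein gene amounted to 4.82% to 10.9% of the main one in Red and to 7.47% to 9.07% in Pale.

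Next, the enzyme was set against the rest of its pathway, to ask whether the whole cycle was low in Red. The list was taken by name. It also holds NADP-dependent isocitrate dehydrogenase and cytosolic malate dehydrogenase, which are not steps of the mitochondrial cycle itself. These other tricarboxylic acid cycle names, called cycle genes below, numbered 19, of which 18 were fitted. In Red, 13 were lower and 5 higher, with a median log2 difference of -0.11 and a range of -0.27 to 0.32, and limma called 0 in either direction. The median over all 12865 genes was -0.08. The number of cycle genes lower in Red was 9 with size factors or after removal of the most abundant gene, and 6 with quantile normalization. The shares lower in Red were 72.2% of the cycle genes and 61.5% of all genes fitted. None of the 18 had a difference as low as that of any of the 3 chosen genes; since those were chosen on this contrast, the order follows from the choice and nothing is read from it. The comparison was added after the data were seen.

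The enzymes on either side of succinate dehydrogenase give the closest setting. The alpha subunit of succinyl-CoA ligase (Daplx7pEVm012933), which makes succinate, averaged 31.3 ± 1.35 FPKM in Red and 38.0 ± 3.48 FPKM in Pale (SD, n = 4 each). Its log2 difference was -0.27 ± 0.13 (SE, limma adjusted p = 0.463). Its Red values lay wholly below its Pale values without overlap, as in 4.45% of all genes fitted. Its beta subunits differed by -0.03 (ADP-forming, Daplx7pEVm009541) and -0.01 (GDP-forming, Daplx7pEVm011032) on the log2 scale, and both turned positive under the 3 other scalings. Fumarate hydratase (Daplx7pEVm008508), which uses the fumarate made by the enzyme, averaged 5.10 ± 0.304 FPKM in Red and 5.99 ± 0.457 FPKM in Pale (SD, n = 4 each), also without overlap, with a log2 difference of -0.20 ± 0.12 (SE; limma adjusted p = 0.550). It was named for its place next to the enzyme, after its values were seen.

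Further along the list of cycle names, which also holds forms outside the cycle itself, the differences were small and of both signs. Mitochondrial NADP-dependent isocitrate dehydrogenase (Daplx7pEVm009465) had the highest level of the cycle names, 153 ± 8.20 FPKM in Red and 132 ± 11.4 FPKM in Pale (SD, n = 4 each). It was higher in Red in all 4 lakes, by 0.21 ± 0.12 (SE) on the log2 scale (limma adjusted p = 0.532). Its lower copy, Daplx7pEVm010821, differed by -0.02, positive under the 3 other scalings. Aconitase (Daplx7pEVm004051), which isomerises citrate, was 37.5 ± 3.23 FPKM in Red and 42.9 ± 4.02 FPKM in Pale (SD, n = 4 each), a log2 difference of -0.19. Citrate synthase (Daplx7pEVm009042), the entry step, differed by -0.21, 2-oxoglutarate dehydrogenase (Daplx7pEVm001757) by -0.15 and its succinyltransferase component (Daplx7pEVm008895) by -0.08. These last signs turned positive under quantile normalization, as did that of aconitase. The malate dehydrogenases differed by 0.06 (mitochondrial, Daplx7pEVm011541) and by 0.04 (cytosolic, Daplx7pEVm014114, -0.03 without Black).

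**Figure D2:**
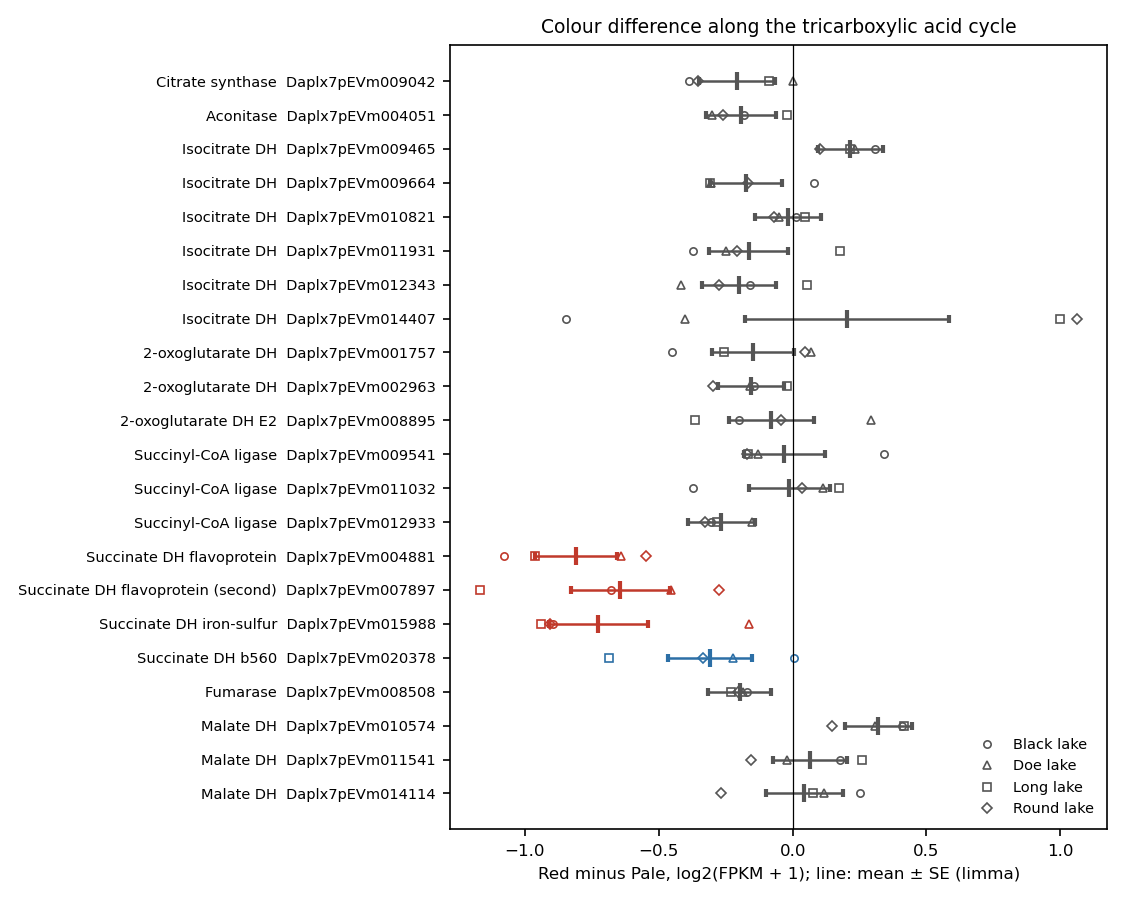
Red minus Pale difference in log2(FPKM + 1) for the succinate dehydrogenase genes (red, b560 in blue) and 18 other cycle-named genes (grey). The genes are in the order of the tricarboxylic acid cycle. Symbols are lakes, and lines the mean ± SE of the limma fit. The 3 chosen genes have means of -0.81, -0.73 and -0.64, left of every grey mean, the lowest of which is -0.27, an order that the choice of the genes on this contrast fixes.

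To take out the scaling of each library, the genes were expressed relative to the median log2 level of the 18 other cycle genes of the same library, a measure added after the data were seen. That median was steady, at 4.08 to 4.12 in Red and 4.04 to 4.20 in Pale. Relative to it, the main flavoprotein gene stood at 0.79, 0.74, 0.91 and 1.35 in Red animals of Black, Doe, Long and Round, against 1.96, 1.29, 1.80 and 1.78 in Pale animals. The mean difference was -0.76 (SD over lakes 0.33, n = 4), with Round Red above Doe Pale on this scale. The iron-sulfur gene differed by -0.68 (SD 0.41), of which Doe showed only -0.07, and the second flavoprotein gene by -0.60 (SD 0.42). The b560 gene, which was among the names not chosen, differed by -0.26 (SD 0.25). The b560 gene was lower in Red in all 4 lakes on this scale, untested, and so were the 3 chosen genes, for which the choice bears on the direction.

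**Figure D3:**
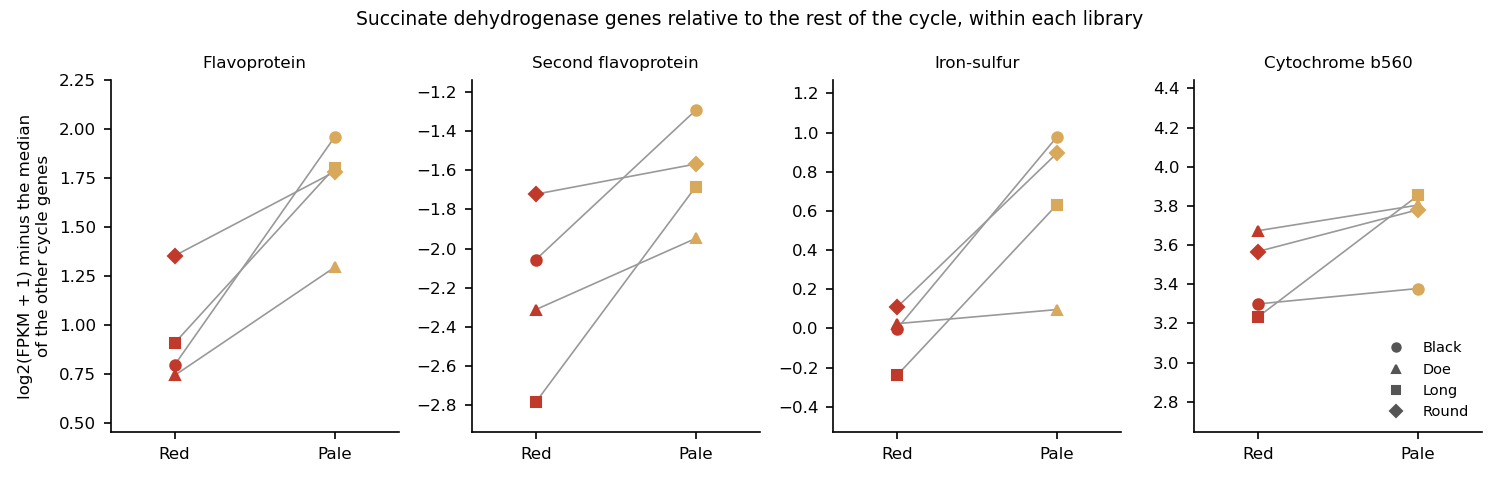
Level of 4 succinate dehydrogenase genes relative to the median of 18 other cycle genes in the same library, in log2(FPKM + 1) units, Red left and Pale right, with a line for each lake. Every line is higher at Pale, which for the 3 chosen genes goes with their choice, with mean Red minus Pale differences of -0.76 for the flavoprotein, -0.60 for the second flavoprotein, -0.68 for the iron-sulfur and -0.26 for the b560 gene; each panel has its own level but the same span.

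The isoforms are parts of genes chosen on the Red against Pale contrast, so they too are described without a test. The share of all isoforms without overlap between phenotypes was not computed. The isoform table splits the main flavoprotein gene into forms t1 and t2. Form t1 had 5.02, 11.99, 11.28 and 10.75 FPKM in Red animals of Black, Doe, Long and Round, against 19.48, 16.00, 14.56 and 14.67 FPKM in Pale animals, without overlap. Form t2, the larger, had 24.22, 15.73, 20.29 and 31.31 FPKM in Red animals against 43.46, 27.84, 47.86 and 47.33 FPKM in Pale animals, lower in Red in each lake but with Round Red above Doe Pale. Both forms were thus lower in all 4 lakes. The share of t2 in its gene was 82.8%, 56.7%, 64.3% and 74.4% in Red animals against 69.0%, 63.5%, 76.7% and 76.3% in Pale animals. It was higher in Red in Black and lower in Red in the other 3 lakes, so no shift of the share went one way.

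The iron-sulfur gene has forms t1, t2 and t3, and t3 was listed at 0 in every library. Form t1 was nearly level in Red, at 4.76, 5.22, 4.80 and 4.91 FPKM in Black, Doe, Long and Round, against 9.76, 7.31, 11.01 and 10.78 FPKM in Pale animals, without overlap. Form t2 had 11.64, 11.25, 8.90 and 12.25 FPKM in Red animals against 21.63, 11.23, 16.16 and 22.28 FPKM in Pale animals. In Doe the t2 values of Red and Pale were level, so the small Doe difference of the gene lay in t1. The share of t2 was higher in Red in all 4 lakes, by 2.07, 7.73, 5.49 and 3.99 percentage points. The second flavoprotein gene has a single isoform. Isoform values are estimates from reads that the forms share, and their own uncertainty is not in the files.

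**Figure D4:**
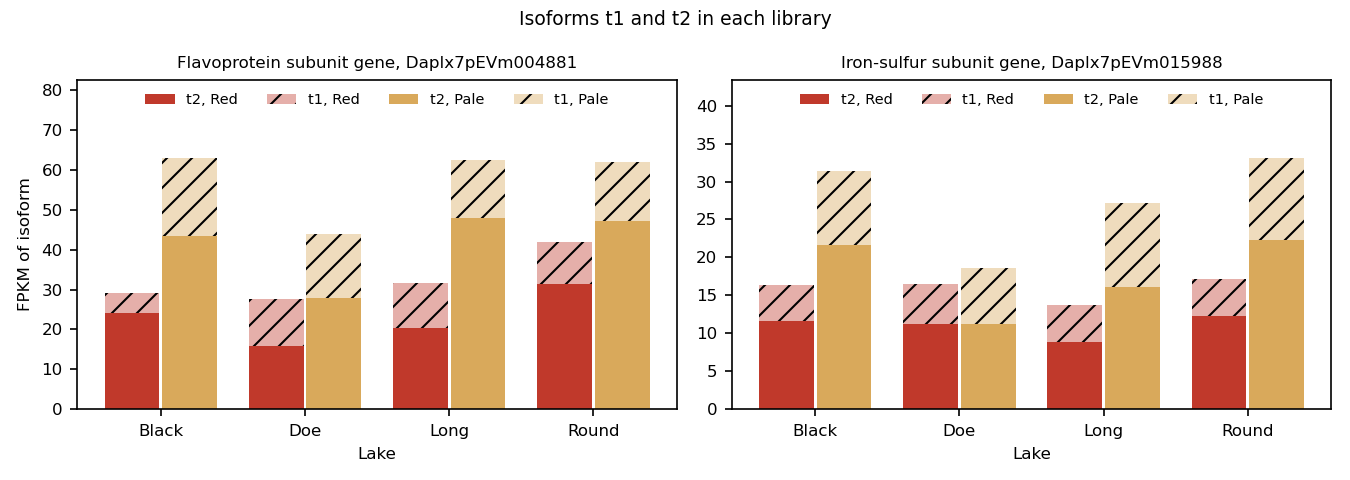
FPKM of isoforms t2 (solid) and t1 (hatched, stacked on t2) of the main flavoprotein and iron-sulfur genes in each lake, Red bars left of Pale bars. The flavoprotein forms are both lower in Red in every lake, and the solid t2 bars of the iron-sulfur gene in Doe are level at 11.25 FPKM in Red and 11.23 FPKM in Pale.

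Differences between lakes do not enter the choice of the genes and were tested. The limma F test over the lake terms, adjusted over all 12865 genes, called none of the 3: the limma adjusted p was 0.671 for the main flavoprotein gene, 0.768 for the iron-sulfur gene and 0.649 for the second flavoprotein gene. The test called 0 genes (0%) in all, with 1273 at an unadjusted p under 0.05, and over isoforms it called 0.017% of 23583. None of the 4 fitted isoforms of the main flavoprotein and iron-sulfur genes was among those called, with adjusted p between 0.543 and 0.955. With both phenotypes averaged, Doe was the lowest lake for the main flavoprotein gene, at a log2 contrast of -0.39 ± 0.18 (SE) against the mean of the other 3 lakes (limma adjusted p = 0.533), and for the iron-sulfur gene, at -0.31 ± 0.21 (limma adjusted p = 0.685). For the second flavoprotein gene Long was the lowest, at -0.39 ± 0.21 (limma adjusted p = 0.763), and Doe followed at -0.25 ± 0.21 (limma adjusted p = 0.741). None of these passed, which does not show that the lakes were alike.

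Ordered by level, the main flavoprotein gene ran Black Pale, Long Pale, Round Pale, Doe Pale, Round Red, Long Red, Black Red, Doe Red. The iron-sulfur gene ran Round Pale, Black Pale, Long Pale, Doe Pale, Round Red, Doe Red, Black Red, Long Red. Doe was the lowest Pale library and Round the highest Red library of both genes. With 1 library for each place in the order, neighbours such as Long Red and Black Red of the flavoprotein gene lie within the spread between lakes and cannot be ranked.

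Next, beside the 61.5% of all genes lower in Red, came names for other dehydrogenases and carriers on the way to ubiquinone. Of 15 such names 9 were fitted, 7 lower and 2 higher in Red, with 0 called and a median log2 difference of -0.16 that turned to 0.012 under quantile normalization. Electron transfer flavoprotein alpha (Daplx7pEVm011410), which carries electrons from fatty acid oxidation, averaged 16.9 ± 2.62 FPKM in Red and 20.8 ± 2.86 FPKM in Pale (SD, n = 4 each), a log2 difference of -0.28 (limma adjusted p = 0.511). Its ubiquinone oxidoreductase (Daplx7pEVm006017) differed by -0.15, a putative glycerol-3-phosphate dehydrogenase (Daplx7pEVm011952) by -0.16 and proline dehydrogenase (Daplx7pEVm005716) by -0.09. These 3 signs turned in at least 1 alternative setting. The name of Daplx7pEVm011952 does not state whether it is a form that feeds ubiquinone.

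The other complexes of the respiratory chain take the electrons onward or enter beside complex II. They and the ATP synthase names were set beside the share of all genes lower in Red, 61.5%, and the median of all genes, -0.08. Of 39 fitted complex I genes 36 were lower, with a median of -0.19, which came to -0.01 under quantile normalization. Of 28 genes of complexes III and IV 20 were lower, with a median of -0.16 that turned to 0.0036 under quantile normalization. Of 27 fitted ATP synthase names 18 were lower, with a median of -0.08 that turned positive under all 3 other scalings. That name pattern also takes vacuolar ATP synthase names (Daplx7pEVm010198 and Daplx7pEVm015930) and an assembly factor (Daplx7pEVm015275). limma called 0 genes in each list. Among their most abundant genes, 2 complex I chains (Daplx7pEVm019794 and Daplx7pEVm063713) differed by -0.04 and -0.09. Of cytochrome c oxidase subunits, Daplx7pEVm017536 differed by -0.02 and Daplx7pEVm026864 by 0.06; of these 4 signs each turned in at least 1 alternative setting. The ATP synthase subunit Daplx7pEVm018386 differed by 0.06 and the ATP synthase beta subunit (Daplx7pEVm007946) by 0.20, higher in Red in all 4 lakes without passing (limma adjusted p = 0.547).

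Genes that supply the cofactors of the enzyme were few, and are set beside the 61.5% of all genes fitted that were lower in Red. Of 7 fitted genes of iron-sulfur cluster supply 6 were lower in Red, with a median log2 difference of -0.41 and 0 called; the median came to -0.20 on a pseudocount of 5 and to -0.17 if low genes were kept. Cysteine desulfurase (Daplx7pEVm007738), which provides the sulfur of the clusters, averaged 6.70 ± 0.589 FPKM in Red and 11.2 ± 3.72 FPKM in Pale (SD, n = 4 each). Its log2 difference of -0.62 ± 0.23 (SE) did not pass (limma adjusted p = 0.388). It was lower in Red in 3 lakes but higher in Black, at 7.44 FPKM in Red against 6.67 FPKM in Pale. The scaffold ISCU (Daplx7pEVm019541) differed by -0.17. Of 7 genes of ubiquinone synthesis 6 were lower, with a median of -0.16 and 0 called. Both COQ7 (Daplx7pEVm017013) and COQ6 (Daplx7pEVm008701) differed by -0.28. COQ6 was lower in Red in all 4 lakes (SD over lakes 0.095). COQ7 was lower in 2 lakes and higher in 2, Black and Round (SD 0.56).

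Pyruvate entry genes, which bring carbon into the cycle, are set beside the same share of all genes lower in Red, 61.5%. Of 15 fitted 11 were lower in Red, with a median of -0.08 that turned positive under all 3 other scalings, and 0 were called. The log2 differences of the list ran from -0.90 to 0.90. The phosphatase that activates pyruvate dehydrogenase (Daplx7pEVm011210) differed by -0.19 and the E1 alpha subunit (Daplx7pEVm010138) by -0.05, and both turned positive under quantile normalization.

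General mitochondrial genes were near the share of all genes lower in Red, 61.5%, and 17 of 19 muscle markers were lower; their part in the succinate dehydrogenase values was not tested. Of 25 fitted names for mitochondrial import, carriers and porins, 17 were lower in Red, with a median of -0.11 and a range of -0.47 to 0.73; the median turned to 0.011 under quantile normalization. The porin Daplx7pEVm013644 averaged 105 ± 13.8 FPKM in Red and 132 ± 17.1 FPKM in Pale (SD, n = 4 each), a log2 difference of -0.32 (limma adjusted p = 0.384), and an ADP/ATP translocase (Daplx7pEVm013952) differed by -0.26. Muscle is rich in mitochondria; of 31 marker names the 19 fitted had a median of -0.28, which was -0.19 to -0.18 under the 3 other scalings. The summed level of the muscle markers was 844 to 1207 FPKM in Red and 1069 to 1676 FPKM in Pale, and 2 of them were listed at 0 in every library, 1 named paramyosin and 1 a myosin light chain kinase. Tropomyosin-1 (Daplx7pEVm011604) differed by -0.38 and troponin T (Daplx7pEVm008472) by -0.42, each lower in all 4 lakes.

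The other tissue lists, set beside the 61.5% of all genes lower in Red, did not lean one way together. Gut proteases and amylases had 60 of 82 fitted names (115 in all) lower in Red, with a median of -0.25 and sums of 4163 to 6415 FPKM in Red and 4072 to 8780 FPKM in Pale. Eye names had 18 of 41 fitted (110 in all) lower, with a median of 0.04 and sums of 1745 to 2878 FPKM in Red and 1440 to 3539 FPKM in Pale, though that name pattern also takes other rhodopsin-family receptors. Yolk names had 7 of 9 fitted (18 in all) lower, with a median of -0.19 and sums of 957 to 2194 FPKM in Red and 1351 to 1742 FPKM in Pale. Dividing cell names had 3 of 12 fitted (15 in all) lower, with a median of 0.11 and sums of 65.8 to 82.8 FPKM in Red and 55.3 to 70.7 FPKM in Pale. At 0 in every library were 4 gut, 10 eye, 0 yolk and 0 dividing cell names. limma called 0 genes in any of the tissue lists.

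**Figure D5:**
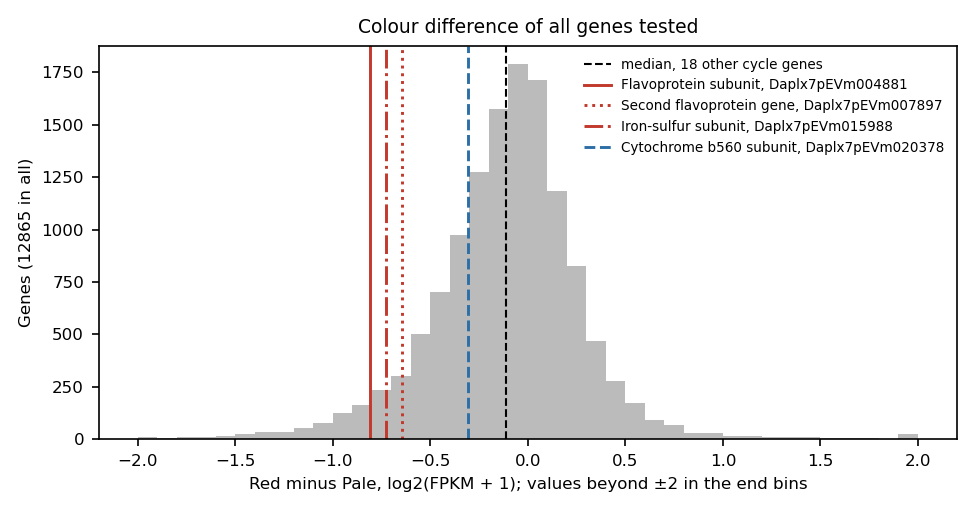
Red minus Pale difference in log2(FPKM + 1) of all 12865 genes fitted, as a histogram of gene counts in steps of 0.1, with vertical lines at the succinate dehydrogenase genes and at the median of the 18 other cycle genes. The 3 chosen genes lie at -0.81, -0.73 and -0.64 in the lower tail, a place set by their choice, and the b560 gene lies at -0.31.

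The flavoprotein and iron-sulfur genes differed in how abundant they were among all genes. The mean FPKM of the main flavoprotein gene was above that of 94.2% of the fitted genes, that of the iron-sulfur gene above 88.1% and that of the second flavoprotein gene above 46.4%. Differences as low as theirs or lower were held by 4.14%, 5.60% and 7.40% of genes, a place set by their choice on this contrast. Relative to the median difference of all genes, the main flavoprotein gene was at -0.73, and at -0.61 under quantile normalization, which moved that median by 0.11. The iron-sulfur gene was at -0.65 and -0.56, and the second flavoprotein gene at -0.56 and -0.58.

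Over the 8 libraries, which share lakes, phenotypes and scaling, the log2 levels of the 3 genes followed each other. Pearson's r was 0.914 between the main flavoprotein and iron-sulfur genes, 0.850 between the flavoprotein genes and 0.869 between the iron-sulfur and second flavoprotein genes. With the mean of each phenotype taken out, r was 0.682, 0.629 and 0.683 for the same pairs. The b560 gene had r of 0.442 with the main flavoprotein gene and 0.406 with the iron-sulfur gene, and -0.17 and -0.18 with phenotype means taken out. These are descriptions over 8 libraries. In the values with phenotype means left in, part comes from the choice of the genes on phenotype.

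The genes whose log2 levels were most like the mean of the 3 chosen genes over the 8 libraries were 6-phosphofructo-2-kinase/fructose-2,6-bisphosphatase (Daplx7pEVm011561, r = 0.983), the uncharacterized Daplx7pEVm059935 (r = 0.981), Papillote (Daplx7pEVm001740, r = 0.980), tiptop (Daplx7pEVm001496, r = 0.977) and an Arf-GAP (Daplx7pEVm004239, r = 0.977). These 5 were picked for likeness to genes chosen on the Red against Pale contrast, so that choice bears on their own Red and Pale values. The first of them makes and breaks fructose 2,6-bisphosphate, a regulator of glycolysis. It had 13.51, 13.11, 11.81 and 16.70 FPKM in Red animals of Black, Doe, Long and Round, against 21.21, 16.28, 22.31 and 20.93 FPKM in Pale animals. With phenotype means taken out, the list was RNA-binding protein 15B (Daplx7pEVm003909, r = 0.984), the uncharacterized Daplx7pEVm064920 (r = 0.980) and Daplx7pEVm001129 (r = 0.972), prostaglandin E synthase (Daplx7pEVm010344, r = 0.973) and caveolin-1 (Daplx7pEVm017274, r = 0.972). The lists had no gene in common. They are the highest of all fitted genes other than the 3 chosen ones, compared over 8 libraries.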

How the data were processed

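The authors deposited FPKM values with 2 decimals for genes and for isoforms, and gene FPKM equalled the sum over isoforms to within 0.04. Trimmomatic, which trims reads, is named in the submitters' processing notes; aligner, quantifier and genome build are not given in the sources used here. The authors' deposited fold column was not used. Gene names are those of the deposited tables; 0 of 33069 identifiers matched RefSeq's gene table (assembly SC_F0-13Bv2), so coordinates and sequences are not given.

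Values were analysed as log2(FPKM + 1) where the mean over libraries reached 1 FPKM, with limma 3.58.1 in R 4.3.3 (mean-variance trend, lake as a block, two-sided, Benjamini-Hochberg, threshold 0.05). The procedure was tested on simulated data with changes larger than the differences of the chosen genes. That test does not cover changes of their size. Lake pairs the libraries by design, as the labels give it. Replicate spread covers these pooled libraries only. The genes and name-pattern lists were chosen with earlier results of these data known. Named were every succinate dehydrogenase name, other cycle and quinone-linked genes averaging 10 FPKM or more, the 2 most abundant genes of each further list and the 5 most like genes by each measure. Gut, eye, yolk and dividing cell genes are given as sums. Alternatives were 3 other scalings, pseudocounts of 0.1 and 5, other filters, no lake block and each lake left out.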

Additional observations from a re-analysis of the deposited data

Results flagged for a closer look

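Groups of 4 libraries were searched for 1 value far from the other 3, over 60 genes and isoforms in both phenotypes, 120 groups in all, and 8 were found. Chance flags about 1 in 20 groups. Among the chosen genes it was the main flavoprotein gene in Doe Pale, at 43.84 FPKM with the other Pale libraries at 62.00 to 62.94 FPKM. The Red minus Pale log2 difference without Doe was -0.86. The cytochrome b560 gene stood apart in Black Pale, at 169.99 FPKM with the others at 250.82 to 261.86 FPKM, and so did its isoform t5, at 167.12 FPKM with the others at 246.55 to 258.01 FPKM. The cytochrome b subunit Daplx7pEVm020067 was at 0.36 FPKM in Long Pale and listed at 0 in the other Pale libraries. Assembly factor 1 was at 0.28 FPKM in Long Red, with the others at 1.07 to 1.18 FPKM.

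The other 3 were in Doe Red. There the succinyltransferase component of 2-oxoglutarate dehydrogenase was at 25.0 FPKM with the others at 17.25 to 18.26 FPKM. A cytochrome c oxidase subunit (Daplx7pEVm017536) was at 102.44 FPKM with the others at 112.98 to 114.98 FPKM. The vitellogenin Daplx7pEVm027417 was at 220.59 FPKM with the others at 678.48 to 752.19 FPKM.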

How the results depend on the processing

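Over 305 alternative values of 29 results, 283 stayed within the spread between lakes, on their side of the test threshold or within 1.5 times a count; 11 moved further and 11 turned beyond that spread. The Red minus Pale difference kept its sign throughout, at -0.89 to -0.58 for the main flavoprotein and -0.91 to -0.54 for the iron-sulfur gene. It was -0.82 to -0.34 for the second flavoprotein gene, which was not fitted at a mean of at least 5 FPKM. The choice of these genes on this contrast bears on the sign. The filters and the lake block cannot change the difference of a single gene. Counts of cycle genes as low as the chosen genes follow from the choice. Both kinds are among the 305 values. Lakes pair the libraries; without the replicate block, as with it, 0 genes were called Red against Pale, and the block changed no other call. The lake test called 1 gene with a pseudocount of 5. Within that spread, the quinone-linked median turned to 0.012 with quantile normalization, and the mean Red minus Pale share of flavoprotein isoform t2, -1.82 percentage points, lay between -7.02 and 1.71 as each lake was left out. Medians of lists moved or turned beyond the spread as follows. With size factors they were -0.024 for the other cycle genes, 0.0075 for pyruvate entry and 0.0076 for ATP synthase; mitochondrial content stayed within it at -0.028, as at -0.015 without the most abundant gene. With quantile normalization they were 0.087 for the other cycle genes (6 genes lower), 0.083 for pyruvate entry, -0.012 for complex I, 0.0036 for complexes III and IV, 0.091 for ATP synthase, 0.011 for mitochondrial content and 0.025 for all genes. Without the most abundant gene they were -0.0098 for the other cycle genes, 0.022 for pyruvate entry, 0.022 for ATP synthase and 0.0025 for all genes. The other succinate dehydrogenase names had -0.54 with a pseudocount of 0.1, -0.20 with 5 and -0.21 at a mean of at least 5 FPKM. Iron-sulfur cluster supply had -0.20 at the pseudocount of 5 and -0.17 when low genes were kept. Leaving out each lake gave ATP synthase -0.091 to -0.012, the end near 0 without Round. The number of reads is unknown, so no counting error is given.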

Other observations

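Pyruvate carboxylase, Daplx7pEVm001692, which makes oxaloacetate from pyruvate and so refills the cycle, had higher values in Red in all 4 lakes, unlike the 3 succinate dehydrogenase genes. It belongs to the pyruvate entry list and was singled out after its values were seen. The log2 differences of that list ran from -0.90 to 0.90, so another of its genes was lower in Red by nearly as much. Pyruvate carboxylase had 36.56, 18.87, 34.98 and 25.49 FPKM in Red animals of Black, Doe, Long and Round, against 17.78, 17.55, 11.63 and 12.37 FPKM in Pale animals. All its Red values lay above all its Pale values, as in 1.62% of all genes fitted. The log2 difference was 0.90 ± 0.25 (SE) and did not pass (limma adjusted p = 0.315). By lake it was 1.00 for Black, 1.51 for Long and 0.99 for Round, but 0.10 for Doe. Doe was thus the lake with the smallest difference for this gene as well as for the iron-sulfur gene. Over the alternatives it stayed between 0.70 and 1.17.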
